A study of Mus musculus with 2 samples.

Results

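Double-positive macrophages were cell barcodes that carried at least 10 unique molecular identifiers (UMIs, each 1 counted RNA molecule) of Arg1 and at least 10 of Nos2 and Cxcl9 together. Of 10533 barcodes in the files, 267 met the rule, 194 of 5175 from CD94-KO tumours and 73 of 5358 from WT tumours. The rule also asked for at least 1000 UMIs, under 10% mitochondrial UMIs, at least 3 UMIs of C1qa, C1qb, C1qc and Csf1r together, at least 5 of Lyz2, 0 of the T cell genes Cd3d, Cd3e and Cd3g, and at most 2 of the dendritic cell genes Cd209a, Flt3 and Kmo. The remaining macrophages that passed these limits served for comparison. They were Arg1-only cells (431 CD94-KO and 199 WT), Nos2/Cxcl9-only cells (286 and 123) and cells with neither (690 and 408).

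Macrophages take up opposed programmes depending on the signals that reach them. Nos2 encodes inducible nitric oxide synthase, which makes nitric oxide from arginine, and Cxcl9 encodes a chemokine that draws in T cells and NK cells through the receptor CXCR3. Both are classical targets of interferon gamma in mouse macrophages. Arg1 encodes arginase 1, which turns arginine into ornithine and so competes for the substrate of nitric oxide synthase. It is induced by interleukin 4, lactate and hypoxia, and is a common feature of tumour macrophages that restrain T cells. The programmes are often drawn as separate poles, although macrophages that meet mixed signals can carry genes of both.

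The CD94-KO group was CD94-KO mice on the C57BL/6J strain, and its control was WT C57BL/6J mice, both 6 to 8 weeks old with a subcutaneous tumour and no other label of treatment. CD94, encoded by Klrd1, is a receptor subunit of NK cells and some T cells. Live CD45+ cells were sorted from the tumours, and each genotype gave 1 droplet-based 3′ RNA library derived from 5 tumour-bearing mice that cannot be told apart. The tumour line and the deleted part of the gene are not given in the sources used here.

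With 1 library per genotype there was no replicate error and no test. Intervals in square brackets are at 95% and cover counting error only. The libraries held 46107433 UMIs in CD94-KO and 40261366 in WT, with medians of 7244 and 2820.5 UMIs per barcode. Over the 4431 and 3211 barcodes that passed the depth and mitochondrial limits, Klrd1 stood at 80.1 counts per 1000000 UMIs (CPM) [77.5 to 82.8] in CD94-KO, against 148 CPM [144 to 152] in WT. It was therefore lower but not lost in the library labelled CD94-KO, and 3′ counts do not check a deletion elsewhere in the gene. These values also depend on the share of NK cells and T cells in each library, which was not taken into account. The libraries shared 8 barcode sequences, and 0 of them were double-positive cells.

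Genes outside the rule bear on the macrophage label, and some mature markers were found in few cells. A UMI of the lysosomal gene Cd68 was found in 91.8% of CD94-KO, against 87.7% of WT double-positive cells, and one of the Fc receptor gene Fcgr1 in 89.7% and 94.5%. The growth factor receptor gene Csf1r (99.5% and 100%) and the complement gene C1qb (65.5% and 80.8%) are part of the rule. Adgre1, which encodes F4/80, was found in 45.4% and 45.2%, and Mertk, a receptor for dying cells, in 6.70% and 5.48%. The monocyte receptor gene Ccr2 was present in 91.2% and 93.2%, and Ly6c2 in 75.3% and 72.6%, so monocyte markers were carried alongside those of macrophages.

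Arg1 (chromosome 10, 24915221 to 24927484, minus strand, GRCm38 with GENCODE M21), Nos2 (chromosome 11, 78920787 to 78960254, plus strand) and Cxcl9 (chromosome 5, 92321347 to 92328079, minus strand) are the genes the cells were chosen by, so their levels are a description. Arg1 had a median of 45 UMIs per double-positive cell in CD94-KO, with a lowest value of 10 and a highest of 291. In WT the median was 36 and the highest 238. Cxcl9 had a median of 29 UMIs and a highest of 274 in CD94-KO, against a median of 21 and a highest of 257 in WT. Nos2 had a median of 6 UMIs and a highest of 74 in CD94-KO, against a median of 0 and a highest of 40 in WT. Most double-positive cells thus met the second limit through Cxcl9.

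**Figure D1:**
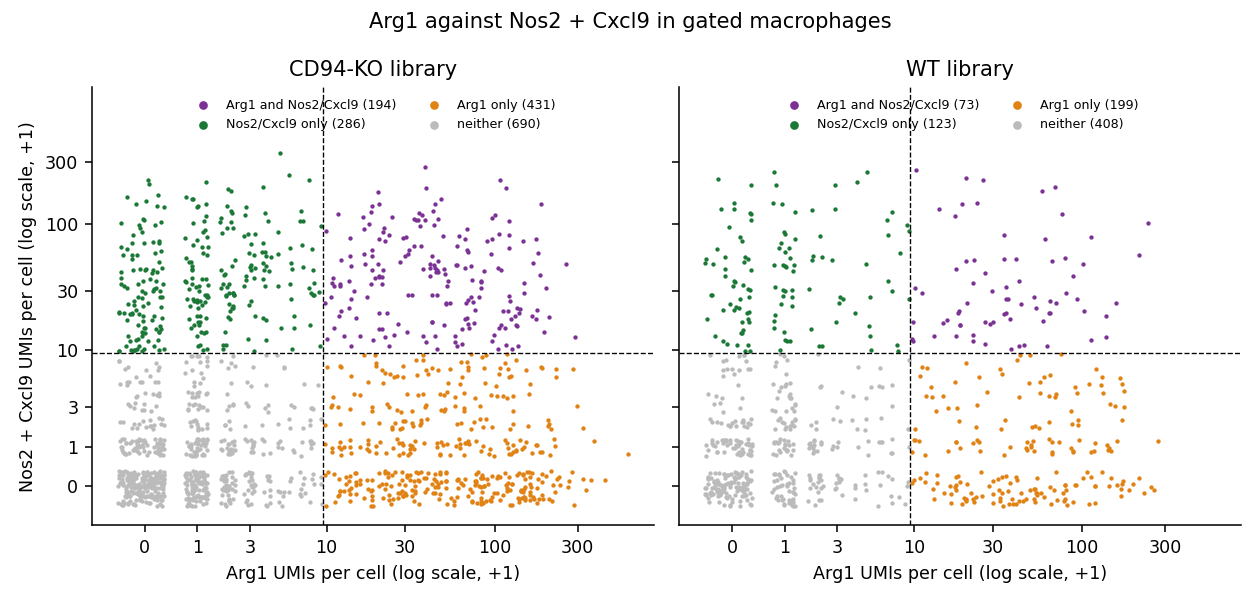
Arg1 UMIs (x axis) against Nos2 + Cxcl9 UMIs (y axis), both on a log scale after adding 1, for each gated macrophage of the CD94-KO library (left) and the WT library (right). Points are cells, spread slightly so that equal counts can be seen, and dashed lines mark the limit of 10 UMIs. The 194 CD94-KO and 73 WT double-positive cells fill the upper right corner without a gap to the neighbouring classes.

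No gap in the counts set the double-positive cells apart. Among cells past the Nos2/Cxcl9 limit, 14 CD94-KO cells lay just inside the Arg1 limit at 10 to 12 UMIs and 17 just outside it at 7 to 9, against 6 and 11 in WT. Among cells past the Arg1 limit, 14 CD94-KO cells lay just inside the Nos2/Cxcl9 limit and 34 just outside it, against 9 and 9 in WT. T cell barcodes, which should lack both programmes, gave the background. These barcodes had at least 3 Cd3 UMIs, 0 of C1qa, C1qb, C1qc and Csf1r, and at most 1 of Lyz2. Among 114 such barcodes in CD94-KO and 82 in WT, at median depths of 5543.5 and 6160 UMIs, the highest Arg1 count was 3 in CD94-KO and 4 in WT. The highest count of Nos2 and Cxcl9 together was 16 in CD94-KO, where 1 T cell barcode reached that limit, and 4 in WT. A UMI of Arg1 was found in 31.6% and 32.9% of those T cell barcodes and one of Nos2 or Cxcl9 in 23.7% and 24.4%. Counts of 10 or more of both genes were found in 0 of 114 and 0 of 82, which allows shares of up to 2.63% and 3.66%. Barcodes with RNA of those macrophage genes were left out beforehand. Mixing may therefore be commoner than these counts show, and that was not tested.

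Standardised for depth, Arg1-high macrophages held Nos2 more often and Cxcl9 less often than Arg1-low ones, less surely so in WT. Among gated macrophages with at least 10 Arg1 UMIs, 31.0% [27.4 to 34.8] in CD94-KO also had at least 10 of Nos2 and Cxcl9 together, against 29.3% [26.5 to 32.3] of those with fewer Arg1 UMIs. In WT the shares were 26.8% [21.7 to 32.5] and 23.2% [19.6 to 27.0]. Arg1-high cells were deeper, and a UMI limit is met more often at depth. The count to be found if Arg1-high cells had the share of Arg1-low cells in the same of 7 depth bins was therefore computed. It was 233 double-positive cells in CD94-KO, where 194 were found, and 85.5 in WT, where 73 were found. The ratios of found to computed were 0.833 [0.736 to 0.935] and 0.854 [0.689 to 1.03], with the computed count taken as fixed. The sum of both genes was therefore met less often than in Arg1-low cells in CD94-KO, and in WT the interval included 1. In cells thinned to 5000 UMIs, the intervals of both libraries included 1, with ratios of 0.897 [0.785 to 1.02] in CD94-KO, against 0.906 [0.703 to 1.13] in WT. With limits of 5 UMIs at full depth the ratios came close to 1, at 0.982 in CD94-KO and 1.04 in WT.

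The 2 genes behind that sum went opposite ways. At least 10 Nos2 UMIs were found in 11.8% [9.41 to 14.6] of Arg1-high cells and 5.74% [4.36 to 7.39] of Arg1-low cells in CD94-KO. In WT the shares were 5.15% [2.84 to 8.49] and 1.69% [0.778 to 3.19]. The depth-standardised ratio for Nos2 was 1.84 [1.47 to 2.28] in CD94-KO, against 1.91 [1.05 to 3.14] in WT. The WT ratio rests on 14 Arg1-high and 9 Arg1-low cells with Nos2, and it was 2.90 without the depth bins that held under 20 cells on either side. The Cxcl9 ratio was 0.698 [0.603 to 0.7997] in CD94-KO, against 0.785 [0.623 to 0.967] in WT. With every cell thinned to 5000 UMIs and limits of 5, the Nos2 ratios were 1.76 [1.34 to 2.27] and 1.83 [0.844 to 3.42], and the Cxcl9 ratios 0.715 [0.607 to 0.833] and 0.811 [0.613 to 1.04]. In these thinned cells both WT intervals included 1. Nos2 and Cxcl9 themselves went together, with ratios of 4.55 [3.72 to 5.47] and 4.60 [2.48 to 7.66] for Nos2 in Cxcl9-high against Cxcl9-low cells.

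**Figure D2:**
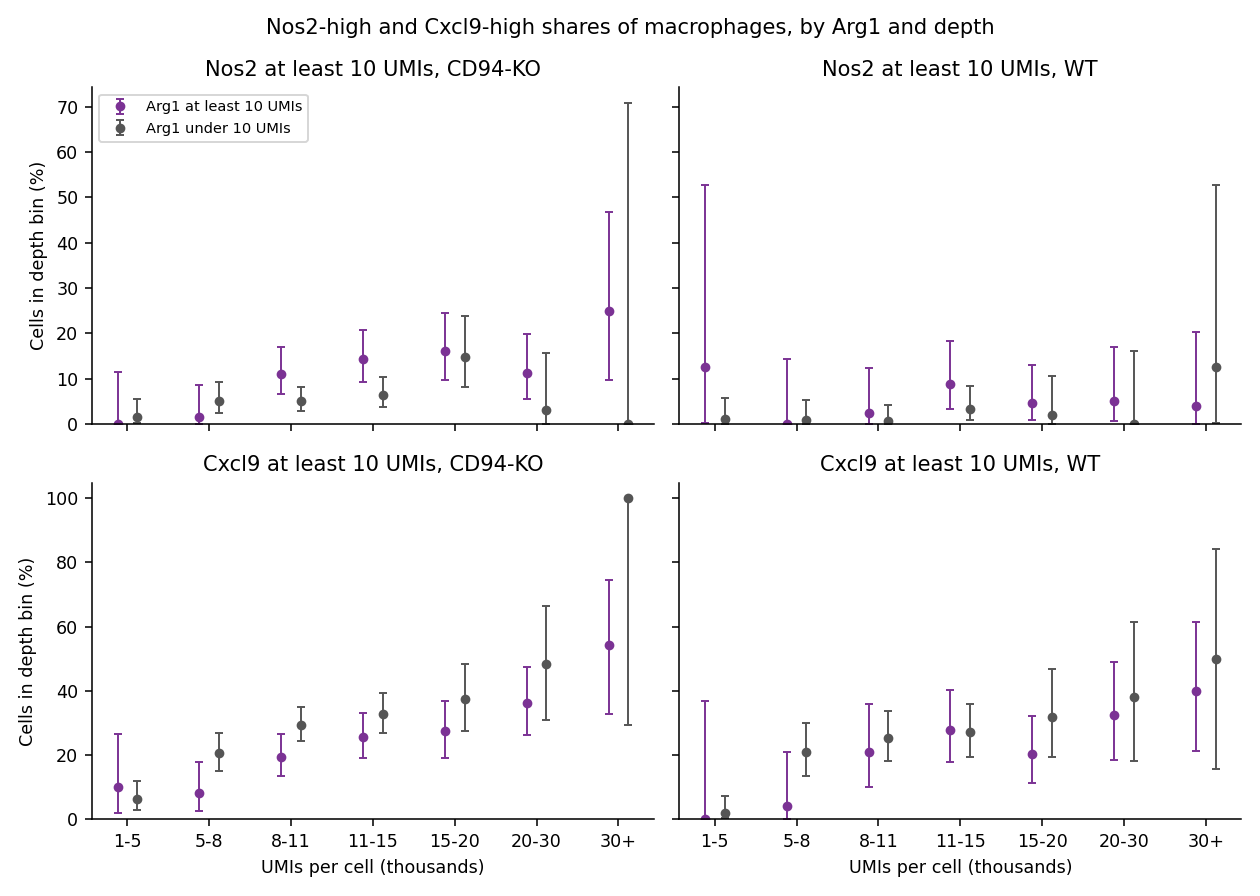
Share of gated macrophages (y axis, %) with at least 10 Nos2 UMIs (top) or 10 Cxcl9 UMIs (bottom) by UMIs per cell in units of 1000 (x axis), for CD94-KO (left) and WT (right). Purple points are cells with at least 10 Arg1 UMIs, grey points those with fewer, and bars are exact 95% binomial intervals. For Cxcl9 the purple points lie under the grey ones in the 6 CD94-KO bins from 5000 UMIs on, at 8.06% against 20.5% in the first of them. For Nos2 they lie above the grey ones in the 5 CD94-KO bins from 8000 UMIs on, at 11.0% against 5.03% in the first of them.

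Over all gated macrophages, Spearman correlations of each gene's share of the cell's UMIs had the same signs. They were 0.17 for Arg1 with Nos2 in CD94-KO cells (n = 1601) and 0.22 in WT cells (n = 803), and -0.05 and -0.05 for Arg1 with Cxcl9. Nos2 with Cxcl9 gave 0.38 and 0.18. These cells share a library and differ in depth, so the values are given as a description.

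In median depth, the double-positive barcodes lay above either single-positive class and below the sum of the single-positive medians. The median was 14281 UMIs in CD94-KO and 15825 in WT. Arg1-only cells had medians of 11461 and 14030 UMIs, and Nos2/Cxcl9-only cells 10764 and 11062. The double-positive median was 0.643 of the sum of the single-positive medians in CD94-KO and 0.631 in WT, and 39 of 194 and 13 of 73 cells reached that sum. A class median cannot show which barcodes were doublets, and that was not tested. The limits on Cd3 and dendritic cell genes mattered for the count. Before them 266 CD94-KO and 149 WT barcodes carried both programmes, the Cd3 limit removed 55 and 71, and the removed barcodes had median depths of 27755.5 and 34064 UMIs.

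RNA of other lineages remained in part of the cells that were kept. A limit of 3 UMIs is met more easily in deeper cells. At least 3 UMIs of the 8-gene NK list were found in 21.6% of CD94-KO and 24.7% of WT double-positive cells. The shares were 9.98% of CD94-KO and 13.6% of WT Arg1-only cells, and 19.9% of CD94-KO and 19.5% of WT Nos2/Cxcl9-only cells. In depth-matched cells the NK list was lower in double-positive cells, at 342 CPM against 437 CPM in Arg1-only and 375 CPM in Nos2/Cxcl9-only cells of CD94-KO, and at 194 CPM against 382 and 473 CPM in WT. The T cell list reached 3 UMIs in 1.55% of CD94-KO and 15.1% of WT double-positive cells, with Cd8a at 0 in CD94-KO. It did so in 5.10% and 8.54% of Arg1-only cells, and in 4.55% and 5.69% of Nos2/Cxcl9-only cells. In depth-matched CD94-KO cells the T cell list was at 16.2 CPM in double-positive, 47.9 in Arg1-only and 47.2 in Nos2/Cxcl9-only cells. In WT it was at 48.9, 33.3 and 52.4 CPM. The summed NK list was at 293 CPM in CD94-KO, against 251 CPM in WT double-positive cells, and the neutrophil list at 56.1 and 294 CPM with Ly6g at 0 in both. In WT 1 cell held 99.5% of the S100a9 and 92.5% of the S100a8 UMIs, and in the depth-matched cells the neutrophil list was at 57.8 CPM in CD94-KO, against 41.1 CPM in WT. Leaving out every barcode with 3 UMIs of any of 7 such lists removed 62 of 194 CD94-KO and 24 of 73 WT double-positive cells. Without them the depth-standardised ratio for Nos2 with Arg1 was 1.82 in CD94-KO and 2.74 in WT. A doublet caller marked 0 of 4431 CD94-KO and 2 of 3211 WT barcodes. Its calls were not used and doublets were not removed, and whether it could find doublets here was not tested. Leaving out the highest 4% of its scores, as an alternative, removed 10 of 194 CD94-KO and 4 of 73 WT double-positive cells. The part of doublets and of RNA from other lineages in the double-positive class was not tested.

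Matching each double-positive cell to a single-positive cell of the same library and depth left 192 CD94-KO and 72 WT pairs with Arg1-only cells, and 171 and 63 pairs with Nos2/Cxcl9-only cells. The gate genes, given as a description, also differed in these pairs. Arg1 had double-positive over Arg1-only ratios of 0.662 in CD94-KO and 0.673 in WT. Over Nos2/Cxcl9-only cells, the ratios were 0.710 and 0.633 for Cxcl9, and 2.05 and 2.31 for Nos2. Against matched Arg1-only cells, the double-positive cells carried a broad interferon programme and less of the tissue-remodelling one. Differences are in log2(CPM + 5), which understates the change of low genes, and a gene counted as higher or lower at 1.5-fold. Of all genes with at least 50 UMIs over both classes, 5.43% were at least 1.5-fold higher and 6.64% at least 1.5-fold lower in CD94-KO, and 6.51% and 4.29% in WT. The interferon gamma list, the targets of that cytokine without Cxcl9, had 22 of 25 measured genes higher and 0 lower in CD94-KO, with a median difference of 1.09. In WT it had 15 of 23 higher and 0 lower, with a median of 0.90. The median over all genes was -0.04 and -0.01.

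These counts covered defence, inhibitory and antigen presentation genes. Gbp2, a guanylate-binding protein that attacks microbial vacuoles, was at 989 CPM against 282 CPM in CD94-KO (ratio 3.51 [3.25 to 3.79]) and 644 against 218 CPM in WT (2.96 [2.59 to 3.39]). Cd274, which encodes the inhibitory ligand PD-L1, was at 403 against 196 CPM in CD94-KO and at 261 against 156 CPM in WT. The MHC class II gene H2-Ab1 was at 5323 against 2695 CPM and 4651 against 2703 CPM. The MHC class II list had 6 of 8 genes higher in CD94-KO and 5 of 7 in WT, with medians of 0.72 and 0.59. It shares Cd74, H2-Ab1 and Ciita with the interferon gamma list.

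Type I interferon targets were higher as well, with 14 of 17 in CD94-KO and 9 of 11 in WT and medians of 0.72 and 0.71. Rsad2, which encodes the antiviral protein viperin, was at 244 against 49.5 CPM in CD94-KO and at 185 against 39.8 CPM in WT. It was found in 38.7% and 35.6% of double-positive cells, and the 5 highest cells carried 44.5% of the CD94-KO and 72.7% of the WT molecules. By size, the genes that stood out most in both libraries were Ly6i, Ccl5, Fam26f, Rsad2, Ly6a, AW112010, Gbp2 and Gbp4. Ccl5, a chemokine for T cells, was at 1035 against 222 CPM in CD94-KO and at 717 against 146 CPM in WT. Ly6i, of the Ly6 surface protein family, had ratios of 6.63 [5.84 to 7.56] and 5.77 [4.53 to 7.43].

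Cxcl10, the interferon-induced neighbour of Cxcl9 that uses the same receptor, was not part of the rule. It was at 518 against 240 CPM in CD94-KO (ratio 2.15) and 814 against 316 CPM in WT (2.58). The windows from 250 bases before to 50 after the start of both genes, read from RefSeq on GRCm38.p6, are printed to set the gate gene beside this neighbour. Capitals mark matches, on either strand, to the interferon-stimulated response element (GAAA and GAAA with any 2 bases between them) or to the consensus NF-kB motif. These occur in 3.45% and 8.49% of 32544 such windows.
Cxcl10 chr5:92348840-92349139 minus strand: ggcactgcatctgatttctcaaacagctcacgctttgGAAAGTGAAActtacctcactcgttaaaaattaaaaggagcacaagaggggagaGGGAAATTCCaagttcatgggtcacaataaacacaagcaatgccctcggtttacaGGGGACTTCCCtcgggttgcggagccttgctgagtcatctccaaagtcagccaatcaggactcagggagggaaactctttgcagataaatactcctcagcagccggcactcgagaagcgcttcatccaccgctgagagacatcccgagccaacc
Cxcl9 chr5:92328030-92328329 minus strand: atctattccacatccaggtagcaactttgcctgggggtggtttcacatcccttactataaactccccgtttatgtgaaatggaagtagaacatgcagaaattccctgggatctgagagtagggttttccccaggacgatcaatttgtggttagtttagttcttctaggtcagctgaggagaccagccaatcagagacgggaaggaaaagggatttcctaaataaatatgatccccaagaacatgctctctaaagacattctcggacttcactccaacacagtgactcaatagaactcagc
The Cxcl10 window held 1 response element and 3 NF-kB matches, of which 2 overlap, and the Cxcl9 window held none of these letters. A further motif, TTC and GAA with any 3 bases between them, occurs in 8.33% of windows and had 0 matches in both. Only these exact letters were searched, so sites with other letters are not shown.

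Genes of matrix, lipid and wound-type macrophages were lower than in Arg1-only cells. Spp1, which encodes osteopontin, was at 1106 against 2430 CPM in CD94-KO (ratio 0.455 [0.437 to 0.474]) and 1008 against 1868 CPM in WT (0.540 [0.505 to 0.577]). The lectin gene Mgl2 was at 91.1 against 301 CPM and 153 against 345 CPM, with 1 cell holding 44.3% and 40.5% of the double-positive UMIs, and the mannose receptor gene Mrc1 was at 117 against 372 CPM and 147 against 216 CPM. The list of alternative activation had 9 of 18 genes lower and 3 higher in CD94-KO, and 4 of 15 lower and 2 higher in WT, with medians of -0.55 and -0.21. The Spp1 lipid and matrix list had 7 of 19 and 4 of 18 lower, with medians of -0.28 and -0.24. Cxcl1, a neutrophil chemokine, was at 103 against 389 CPM and 142 against 312 CPM. Lpl, Sh3bp5, Mtss1, Ccl6 and Ccl2 completed the lower genes by size. The hypoxia and glycolysis list had 0 of 19 genes past 1.5-fold in CD94-KO and 1 of 19, lower, in WT.

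**Figure D3:**
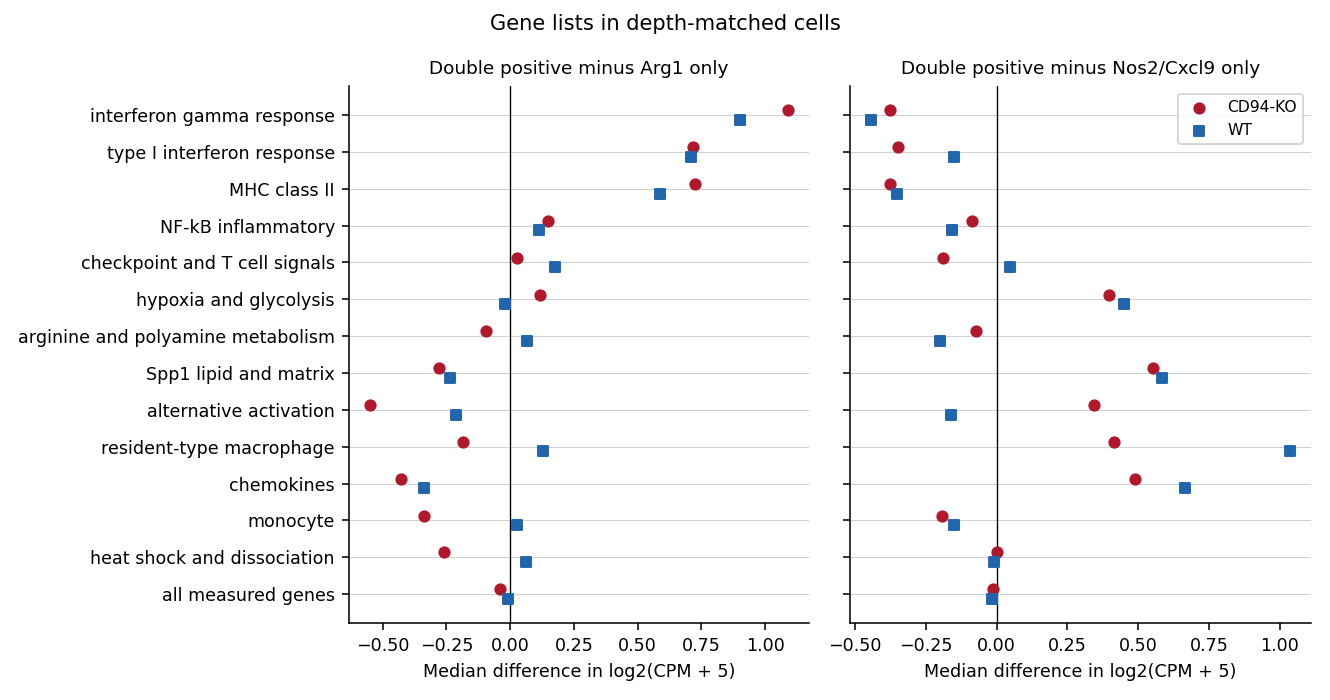
Median difference in log2(CPM + 5) over each gene list (x axis) between double-positive cells and depth-matched Arg1-only cells (left) or Nos2/Cxcl9-only cells (right). Red circles are CD94-KO and blue squares WT, and the lowest row gives the median over all measured genes. Interferon and MHC class II lists lie right of 0 on the left and left of 0 on the right, and the Spp1 and chemokine lists the other way round.

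Set against matched Nos2/Cxcl9-only cells, the double-positive cells had less of the interferon gamma and MHC class II lists. Of all measured genes, 4.79% were at least 1.5-fold higher and 5.35% at least 1.5-fold lower in CD94-KO, and 7.13% and 5.62% in WT. The interferon gamma list had 9 of 26 genes lower and 0 higher in CD94-KO, and 6 of 23 lower and 0 higher in WT, with medians of -0.38 and -0.44. Gbp5 was at 67.9 against 133 CPM in CD94-KO and at 46.9 against 102 CPM in WT, and H2-Ab1 at 5432 against 7053 CPM and 4876 against 6593 CPM. Type I interferon targets had 0 of 17 higher and 2 lower in CD94-KO, and 3 of 13 higher and 1 lower in WT, with medians of -0.35 and -0.15. The MHC class II median was -0.38 in CD94-KO and -0.35 in WT, and in WT it lay at 0.09 in thinned cells and 0.06 without barcodes carrying RNA of other lineages. The monocyte gene Ly6c2 was at 665 against 1342 CPM (ratio 0.496 [0.467 to 0.526]) and 365 against 833 CPM (0.438 [0.386 to 0.496]). Serpina3g, Gpr141, Dtx3l, Lmo4 and Ccl17 were also among the lower genes by size.

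The double-positive cells had more of the matrix, chemokine, hypoxia and resident-type macrophage lists than Nos2/Cxcl9-only cells. Spp1 was at 1096 against 414 CPM in CD94-KO (ratio 2.65 [2.46 to 2.85]) and 1026 against 250 CPM in WT (4.11 [3.57 to 4.75]). Fn1, which encodes fibronectin, was at 1555 against 637 CPM and 1960 against 662 CPM. Pdpn, which encodes the mucin-like protein podoplanin, was at 313 against 102 CPM and 389 against 93.4 CPM, and Nt5e, the enzyme CD73 that makes adenosine, at 104 against 37.2 CPM and 112 against 46.2 CPM. The Spp1 lipid and matrix list had 9 of 18 genes higher in both libraries and 0 and 1 lower, with medians of 0.55 and 0.58. The list of alternative activation was mixed, with 7 of 16 genes higher and 2 lower in CD94-KO and 3 of 12 each way in WT, and medians of 0.34 and -0.16. The monocyte chemokine gene Ccl7 had a ratio of 3.22 in CD94-KO and 14.5 [8.29 to 27.7] in WT, where 13 UMIs were counted in the Nos2/Cxcl9-only cells and 5 cells held 87.1% of the double-positive UMIs. The chemokine list had 5 of 15 genes higher and 2 lower in CD94-KO, and 7 of 13 higher and 2 lower in WT, with medians of 0.49 and 0.66. Cxcl1, Ccl24 and Stab1 completed the higher genes by size.

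The resident-type macrophage list had 4 of 12 genes higher and 0 lower in CD94-KO, and 7 of 11 higher and 0 lower in WT, with medians of 0.41 and 1.04. With limits of 20 UMIs the CD94-KO median was -0.19. Maf, a transcription factor of mature macrophages, was at 149 against 66.5 CPM in CD94-KO and at 106 against 47.2 CPM in WT, and the scavenger receptor gene Stab1 at 56.8 against 23.8 CPM and 74.3 against 26.7 CPM. The lipid carrier gene Apoe was at 712 against 939 CPM in CD94-KO and at 1247 against 814 CPM in WT.

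The hypoxia and glycolysis list was higher than in Nos2/Cxcl9-only cells, with 4 of 19 genes past 1.5-fold in CD94-KO, 6 of 19 in WT and 0 lower in both, and medians of 0.40 and 0.45. Egln3, an oxygen sensor that hypoxia itself induces, was at 104 against 44.7 CPM in CD94-KO and at 71.4 against 26.7 CPM in WT. Ero1l, an oxidase of the endoplasmic reticulum, was at 337 against 203 CPM and 287 against 155 CPM. The lipid droplet gene Hilpda was at 511 against 238 CPM and 298 against 194 CPM. Against Arg1-only cells the same list had medians of 0.12 and -0.02.

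Genes of arginine metabolism other than the gate genes were mixed. Ass1, which rebuilds arginine from citrulline and so serves nitric oxide synthesis, was at 344 against 143 CPM in CD94-KO double-positive and Arg1-only cells, and at 295 against 191 CPM in WT. Against Nos2/Cxcl9-only cells its ratios were 1.12 and 0.773. Slc7a2, the inducible arginine transporter, was at 212 against 58.5 CPM in CD94-KO double-positive and Nos2/Cxcl9-only cells, and at 189 against 147 CPM in WT. The list as a whole had medians of -0.10 and 0.07 against Arg1-only cells and -0.07 and -0.20 against Nos2/Cxcl9-only cells.

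To set both programmes on 1 scale, the 25 genes highest in Arg1-only against Nos2/Cxcl9-only cells, and the 25 highest the other way, were chosen in 1 library and measured in depth-matched trios of the other, without the gate genes. Of the 2 choices, 14 Arg1-side and 18 Nos2/Cxcl9-side genes were shared. The double-positive cells lay between the single-positive classes on both sides. In CD94-KO (170 trios) the Arg1-side genes summed to 14013 CPM in double-positive cells, against 22459 in Arg1-only and 7802 in Nos2/Cxcl9-only cells, or 42.4% of the way up from the lower class. The chemokine gene Cxcl2 alone gave 8215, 10505 and 5353 CPM of these sums. It was not among the Arg1-side genes measured in WT, so the sums of the libraries are not alike. The Nos2/Cxcl9-side genes summed to 9708 CPM, against 3872 in Arg1-only and 13626 in Nos2/Cxcl9-only cells, or 59.8% of the way.

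In WT (63 trios) the Arg1-side genes summed to 7918 CPM in double-positive cells, against 13490 and 3273, or 45.5% of the way, and the Nos2/Cxcl9-side genes to 6909 CPM, against 2238 and 8472, or 74.9%. An equal mix of both single-positive classes would lie at 50%. Gene by gene, 22 of 25 Arg1-side and 21 of 25 Nos2/Cxcl9-side genes lay between the classes in CD94-KO, and 21 and 23 of 25 in WT. The WT share on the Arg1 side was 87.9% with limits of 20 UMIs, so it moved with the UMI limit.

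Within single cells, few double-positive barcodes reached the single-positive medians of both programmes. A cell was taken as high on a side when it reached the median of the matching single-positive class. By that definition only 85 of 170 CD94-KO and 32 of 63 WT cells of each single-positive class were high on their own side. Of 170 CD94-KO double-positive cells, 4 were high on both sides (2.35% [0.645 to 5.91]), 46 on the Arg1 side alone, 41 on the Nos2/Cxcl9 side alone and 79 on neither. In WT the numbers were 3 (4.76% [0.993 to 13.3]), 9, 23 and 28 of 63. Arg1-only cells were high on both sides in 1 of 170 and 1 of 63, and Nos2/Cxcl9-only cells in 4 of 170 and 1 of 63. Spearman's rho between the sides was -0.34 over the CD94-KO and -0.32 over the WT double-positive cells, as a description over cells that share a library. It was also negative over Arg1-only cells (-0.53 and -0.32) and Nos2/Cxcl9-only cells (-0.15 and -0.23).

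**Figure D4:**
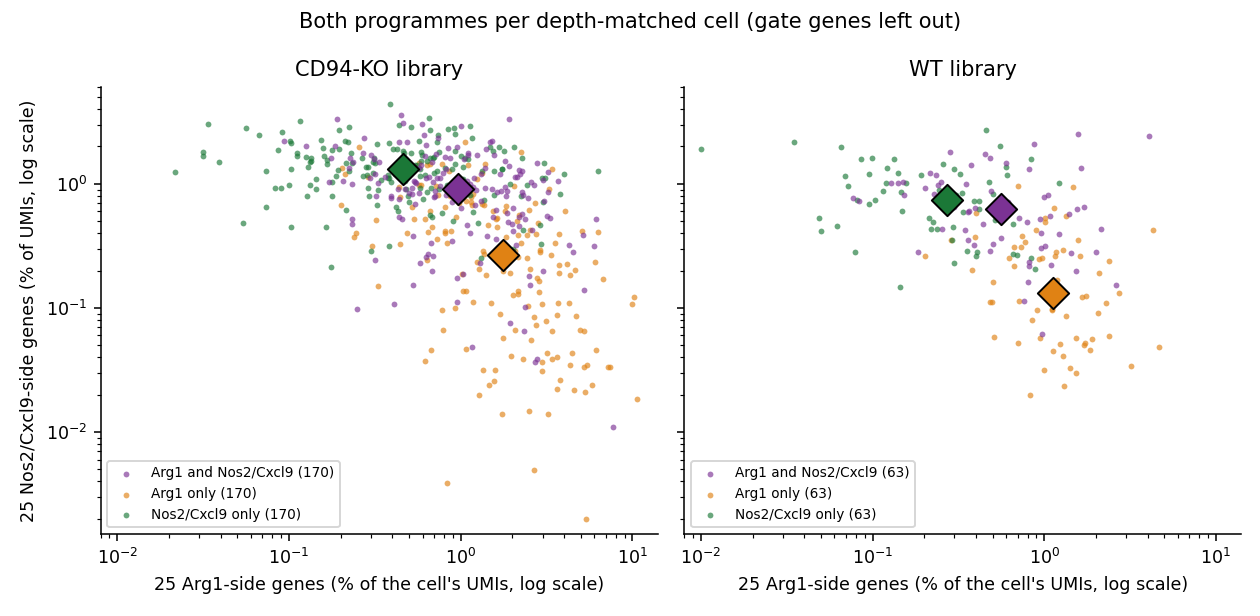
Share of each cell's UMIs (%, log scales) in 25 Arg1-side genes (x axis) and 25 Nos2/Cxcl9-side genes (y axis) for depth-matched cells of the CD94-KO library (left, 170 per class) and WT library (right, 63 per class). Diamonds are class medians, and 1 cell at 0 is drawn at the foot of the axis. The CD94-KO Arg1-side genes include Cxcl2, and the WT ones do not. Double-positive cells (purple) have medians of 0.960% and 0.904% in CD94-KO, between Arg1-only cells (orange, 1.76% and 0.268%) and Nos2/Cxcl9-only cells (green, 0.460% and 1.32%).

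The double-positive cells were of more than 1 kind by which gene met the second limit. In CD94-KO, 44 cells had at least 10 UMIs of both Nos2 and Cxcl9, 30 of Nos2 alone, 109 of Cxcl9 alone, and 11 reached the sum with each gene under 10. In WT the numbers were 8, 6, 57 and 2. At least 10 Nos2 UMIs were carried by 38.1% [31.3 to 45.4] of CD94-KO, against 19.2% [10.9 to 30.1] of WT double-positive cells, and no Nos2 UMI was found in 47 of 194 and 37 of 73. Arg1 was at 4080 CPM in the 74 Nos2-high double-positive cells of CD94-KO and 3725 CPM in 74 depth-matched Nos2-low ones. In WT it was at 4090 and 2196 CPM over 13 pairs.

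Nos2-high double-positive cells of CD94-KO had more of the hypoxia and glycolysis list than their matched Nos2-low counterparts, with 5 of 19 genes at least 1.5-fold higher, 0 lower and a median of 0.38. Of all measured genes 4.54% were higher and 8.86% lower, with a median of -0.09. Hk2, the first enzyme of glycolysis, was at 466 against 265 CPM, Ero1l at 438 against 231 CPM and Egln3 at 125 against 66.5 CPM. Inhba, which encodes activin A, was at 1227 against 484 CPM, and Ccl5 at 1504 against 522 CPM. Il1b was at 7647 against 5228 CPM. The matrix list had a median of -0.37 in CD94-KO and 0.07 in WT (in CD94-KO, Spp1 1001 against 1339 CPM, Fn1 1375 against 1942 CPM). In WT, 7 of 16 genes of the hypoxia list were higher and 0 lower, where 10.4% of all genes were higher and 9.7% lower. That comparison rests on 13 pairs of cells.

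Among the sorted cells that were sequenced, double-positive cells made up 12.1% [10.6 to 13.8] of 1601 gated macrophages in CD94-KO and 9.09% [7.19 to 11.3] of 803 in WT, a ratio of 1.33 [1.01 to 1.77]. Before the Cd3 and dendritic cell limits, 266 of 1945 CD94-KO and 149 of 1169 WT barcodes carried both programmes, which lie closer together. The Cd3 limit removed 55 and 71 of them, a larger part in WT, so the ratio depends on that limit. With every cell thinned to 5000 UMIs and limits of 5, which left out 157 and 103 shallower cells, they made up 11.8% [10.2 to 13.6] and 8.00% [6.10 to 10.3]. In the double-positive cells Nos2 was at 627 CPM [600 to 655] in CD94-KO, against 268 CPM [242 to 297] in WT, a ratio of 2.34 [2.09 to 2.62]. Arg1 was at 3871 and 2645 CPM, a ratio of 1.46 [1.41 to 1.52]. Cxcl9 was at 2508 and 2307 CPM, a ratio of 1.09 [1.04 to 1.13] that turned below 1 in depth-matched cells and without barcodes of other lineages.

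Neither higher level was limited to the double-positive cells. Nos2 had CD94-KO over WT ratios of 2.69 [2.34 to 3.10] in Nos2/Cxcl9-only cells, 1.35 [1.08 to 1.69] in Arg1-only cells and 2.31 [1.58 to 3.46] in cells with neither. Arg1 had a ratio of 1.43 [1.41 to 1.46] in Arg1-only cells. In the classes held under 10 Arg1 UMIs, its intervals included 1. The ratios there were 1.17 [0.987 to 1.38] in Nos2/Cxcl9-only cells and 1.08 [0.965 to 1.20] in cells with neither. Differences between the classes in these ratios were not tested.

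**Figure D5:**
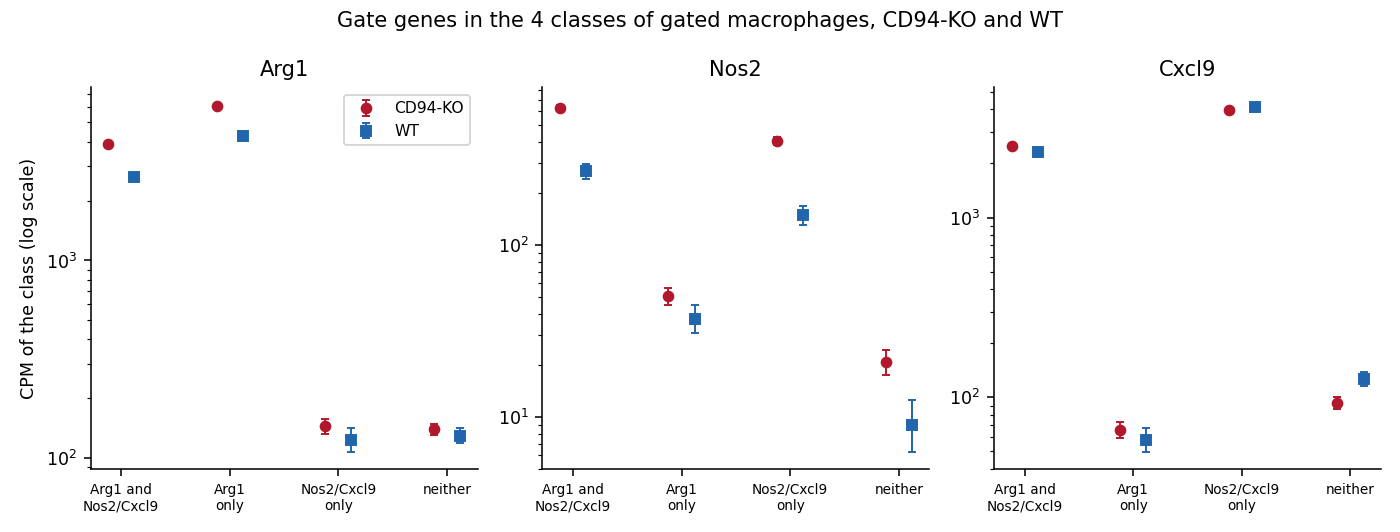
Arg1, Nos2 and Cxcl9 (panels, CPM of the summed class on a log scale) in the 4 classes of gated macrophages (x axis) for CD94-KO (red circles) and WT (blue squares), with exact Poisson 95% intervals. Nos2 is higher in CD94-KO in every class, at 627 against 268 CPM in double-positive cells and 401 against 149 CPM in Nos2/Cxcl9-only cells. The limits of 10 UMIs set which classes are high for Arg1 and for the sum of Nos2 and Cxcl9, and these levels are a description.

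Between the genotypes, 5.14% of 6356 genes measured in double-positive cells were at least 1.5-fold higher in CD94-KO and 5.93% at least 1.5-fold lower. The list of nuclear and rRNA-linked genes, a sign of RNA quality, was lower in CD94-KO in every class, with medians of -0.39 in double-positive, -0.41 in Arg1-only, -0.27 in Nos2/Cxcl9-only and -0.45 in cells with neither, over 4 genes of which 1, 0, 0 and 1 passed 1.5-fold. Its part in the differences between the genotypes was not tested. The interferon gamma list had 8 of 25 genes higher and 1 lower, with a median of 0.31 against -0.02 over all genes. Fcgr4, an activating Fc receptor, was at 366 CPM in CD94-KO, against 229 CPM in WT, Cd274 at 402 and 258 CPM, and Cxcl10 at 527 and 791 CPM. The list was also higher in the other classes, with medians of 0.16 in Arg1-only, 0.27 in Nos2/Cxcl9-only and 0.37 in cells with neither. Over all genes, 4.2% were higher and 3.64% lower in Arg1-only cells, 6.15% and 7.05% in Nos2/Cxcl9-only cells, and 2.74% and 5.24% in cells with neither. The hypoxia and glycolysis list had 3 of 19 genes higher and 0 lower with a median of 0.23, led by Bnip3 (257 and 157 CPM), Egln3 (94.1 and 58.4 CPM) and Hilpda (470 and 300 CPM). Its medians were 0.02 in Arg1-only, 0.25 in Nos2/Cxcl9-only and -0.03 in cells with neither.

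The monocyte list had 5 of 11 genes higher in CD94-KO double-positive cells and 0 lower, with a median of 0.23. Its medians were 0.43 in Arg1-only, 0.12 in Nos2/Cxcl9-only and 0.18 in cells with neither. Plac8 was at 2130 and 1183 CPM and Ly6c2 at 640 and 361 CPM. MHC class II genes were close between the genotypes, with 0 of 8 past 1.5-fold and a median of -0.02. The proliferation list had a median of -0.75 with 4 of 7 genes lower, and of 0.058 without barcodes of other lineages. It was also lower in the other classes, at -0.60 in Arg1-only, -0.95 in Nos2/Cxcl9-only and -0.89 in cells with neither.

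Among the 20 genes named by size, 5 had a UMI in 47.9% or more of the double-positive cells of both libraries. Inhba was at 717 and 356 CPM (ratio 2.02 [1.83 to 2.23]), with a UMI in 66.5% of CD94-KO and 64.4% of WT double-positive cells. Pla2g7, a phospholipase that inactivates platelet-activating factor, was at 486 and 214 CPM and was found in 83.5% and 78.1%. Pfkfb3, an activator of glycolysis, was at 90.9 and 44.0 CPM. Klf2, a transcription factor that dampens inflammatory genes, was at 104 and 52.0 CPM, and the interferon-induced membrane protein gene Ifitm1 at 388 and 201 CPM. Ifitm1 was also higher in CD94-KO Arg1-only cells and in cells with neither, with ratios of 1.98 and 1.96.

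Several of the other genes rest on few cells. Of the S100a9 UMIs in WT double-positive cells 99.5% came from 1 cell, and of the S100a8 UMIs 92.5%. For Gzmc 5 cells held 96.0% of the WT UMIs, for Xcl1 86.4% and for Ccl17 91.2%. Mmp13 had 196 UMIs in 16 CD94-KO cells and 13 UMIs in 3 WT cells. Ccl24, Procr, Gzma and Pgf were higher in CD94-KO, and Pf4, Satb1, Mt2, Ctla2a and Limd2 were lower. The 5 highest cells held 70.4% of the Ccl24 UMIs in CD94-KO and 85.8% in WT, and 77.4% and 84.5% of those of Pf4. Their shares were 68.4% and 82.6% for Gzma, 65.5% and 76.9% for Ctla2a, and 54.2% and 77.7% for Mt2. For Pgf they were 48.4% and 71.4%, for Procr 47.5% and 68.3%, and for Satb1 53.4% and 56.3%. Limd2 was more evenly spread, at 24.6% and 33.3%. Gzma, Pgf, S100a8, S100a9, Xcl1 and Ctla2a turned round without barcodes that carried RNA of other lineages, and the lists behind that limit hold Gzma, S100a8 and S100a9 themselves.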

How the data were processed

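Single-cell 3′ RNA was counted as UMIs per gene and barcode (Cell Ranger 5.0.0 by the headers of the files), and the submitters' processing notes name the build mm10 and Seurat 4.0. The deposited values are raw counts for 27998 genes, with 1 matrix per genotype. Cells were gated on these counts and summed per class, and values are CPM of those sums. Double-positive cells were matched 1 to 1 within a library on log10 UMIs (caliper 0.05). Genes needed 50 UMIs over both classes, and the pseudocount was 5. The named genes were those of the lists, the 8 largest differences each way against each single-positive class (the smaller of both libraries, same sign), and the 10 largest each way between the genotypes, with at least 100 UMIs and 50 CPM, without gate, mitochondrial and ribosomal genes. Intervals are exact (Poisson, Clopper-Pearson or conditional binomial). Members and lists were chosen with earlier results of these data known. Alternatives covered UMI limits, thinning, matching, doublet scores, scaling by edgeR 4.0.16 and filters. Steps were tested on simulated data with python 3.11.15, numpy 2.4.6, scipy 1.17.1, pandas 2.3.3, scanpy 1.11.5 (Scrublet) and matplotlib 3.10.9. Of 289 list symbols 288 were found, 2 of them under older names. Some genes named by these rules are not reported here.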

Additional observations from a re-analysis of the deposited data

Results flagged for a closer look

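Some genes went opposite ways in the libraries when double-positive cells were set against single-positive ones, and the difference between the libraries was not tested. Against Arg1-only cells, the ratio was 0.116 in CD94-KO and 2.47 in WT for Ccl17, a chemokine for T cells. It was 0.116 and 2.34 for the granzyme gene Gzmc, and 0.651 and 2.24 for the chemokine gene Xcl1, both typical of NK cells and T cells. The heat shock gene Hspa1a had ratios of 0.529 in CD94-KO and 2.14 in WT, and Hspa1b of 0.550 and 1.78. The neutrophil genes S100a8 and S100a9 had ratios of 0.613 and 0.450 in CD94-KO and of 6.61 and 5.98 in WT, where 1 cell held most of their UMIs. Against Nos2/Cxcl9-only cells, Gzmc had ratios of 0.0469 in CD94-KO and 17.6 in WT. The lipase gene Lpl had 1.62 and 0.174, and Stmn1, a gene of dividing cells, 1.61 and 0.376.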

How the results depend on the processing

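With 1 library of pooled mice per genotype, differences between the genotypes and between libraries cannot be told apart, and the WT values rest on 73 cells, whose number limits their precision. No paired analysis was possible because each genotype had 1 library. The causes of the changes that follow were not tested, and the lineage limit, the genotype matching on depth and the fuller depth bins were chosen after seeing the data. The share of double-positive cells was 17.7% in CD94-KO and 14.9% in WT with limits of 5 UMIs, and 7.12% and 5.11% with limits of 20. Its genotype ratio stayed between 1.19 and 1.48 in settings that all kept the Cd3 and dendritic cell limits. With limits of 5 the depth-standardised ratio of the summed genes was 0.982 in CD94-KO and 1.04 in WT, and that of Nos2 2.35 in CD94-KO. With limits of 20 the Nos2 ratio was 3.50 in WT. Without a UMI filter, genes past 1.5-fold numbered 4841 and 4899 against Arg1-only cells in CD94-KO and WT, 4773 and 5192 against Nos2/Cxcl9-only cells, and 5125 between the genotypes, in place of 851, 549, 654, 547 and 704. Thinned cells gave 407 between the genotypes.

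The percent of the way on the Arg1 side in CD94-KO (42.4 as reported) was 37.3 with limits of 20, 40.3 in thinned cells, 41.3 without high doublet scores, 47.1 without matching, 39.9 over per-cell means and 38.7 without lineage barcodes. The Nos2/Cxcl9 side (59.8) was 73.6 with limits of 20, 50.6 thinned, 57.7 without high doublet scores, 58.5 with stricter single positives and 49.96 without matching. In WT the Arg1 side (45.5) was 87.9 with limits of 20, 54.5 thinned, 47.8 without high doublet scores, 41.4 with stricter single positives, 48.2 without matching, 47.3 over per-cell means and 55.8 without lineage barcodes. The Nos2/Cxcl9 side (74.9) was 81.6 with limits of 20, 70.7 thinned, 81.5 with stricter single positives, 60.8 without matching, 81.7 over per-cell means and 86.5 without lineage barcodes.

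Log2 medians and gene differences that changed sign are given by setting. With limits of 20, they were NF-kB -0.093 against Arg1-only cells and resident -0.19 and proliferation -0.19 against Nos2/Cxcl9-only cells in CD94-KO, and chemokines 0.35 and Ccl2 0.35 against Arg1-only cells in WT. In thinned cells, proliferation was -0.25 against Nos2/Cxcl9-only cells in CD94-KO. WT thinned cells gave resident -0.13 and checkpoint -0.079 against Arg1-only cells, and arginine 0.070, MHC class II 0.092 and proliferation 0.35 against Nos2/Cxcl9-only cells. Between the genotypes they gave Pgf -0.14, S100a9 1.84 and S100a8 1.73. Without high doublet scores, NF-kB was 0.0011 and monocyte 0.28 against WT Nos2/Cxcl9-only cells. Stricter single positives gave resident -0.11 against Arg1-only cells and proliferation 0.24 against Nos2/Cxcl9-only cells in WT. Without matching, monocyte was 0.074 against Nos2/Cxcl9-only cells in CD94-KO. In WT, resident was then -0.10 against Arg1-only cells and proliferation 0.13 against Nos2/Cxcl9-only cells. Per-cell means gave alternative activation -0.018 between the genotypes. Without lineage barcodes, WT had NF-kB -0.087 and resident -0.030 against Arg1-only cells, and alternative activation 0.0062, MHC class II 0.055 and proliferation 0.12 against Nos2/Cxcl9-only cells. The genotypes then differed by 0.058 for proliferation, -0.29 for Gzma, -0.16 for Pgf, 0.56 for S100a9, 0.97 for S100a8, 0.060 for Xcl1, 0.30 for Ctla2a and -0.16 for Cxcl9. Cxcl9 was -0.13 in depth-matched genotypes.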
